A study of Mus musculus with 10 samples.

Results

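Wnt antagonists are proteins that damp Wnt signalling, and 10 of their genes were followed here in the C3H10 T1/2 line, fibroblasts of mouse embryo origin that can take on bone, cartilage and fat fates. The genes were chosen by name, Dkk2, Dkk3, Nkd1, Nkd2, Axin2, Sfrp1, Sfrp2, Wif1, Notum and Znrf3, out of 46095 gene symbols in the count table. All 10 had enough reads to be tested, Nkd1 only through its static control libraries, among 15335 genes tested in all. Open-chromatin peaks were taken where they lay within 5 kb of the body of one of these genes, which gave 10 merged regions of 29289.

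In the RNA-seq set, 3 static control libraries were compared with 3 libraries from cells under cyclic mechanical strain. Strained cells were stretched by 10% at 0.5 Hz in a sine wave for 8 h a day over 3 days, after 48 h of growth on flexible plates coated with collagen type I. The same 48 h of growth is given for the static controls. In the ATAC-seq set, which maps open chromatin by insertion of adapters with the transposase Tn5, 2 libraries came from cells carrying GFP as control and 2 from cells in which Piezo1, the gene of a mechanically gated cation channel, had been knocked out with CRISPR/Cas9. Each ATAC-seq library was made from nuclei of 50000 cells, and no mechanical strain is named for these cells. All 10 libraries are of 1 cell line, the labels do not say whether the knockout was a single clone or a pool, and they give C57BL/6 as the strain of the RNA-seq cells although the line is known to stem from C3H embryos. The labels also do not say whether replicates were separate cultures, so a p-value here reflects variation among libraries that could be purely technical.

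Wnt ligands are secreted lipid-modified proteins that bind Frizzled receptors together with the co-receptors LRP5 and LRP6. Binding halts the destruction complex that degrades beta-catenin, which then enters the nucleus and acts with TCF/LEF factors on target genes. In cells of the mesenchymal lineage this pathway is known for promoting bone formation and restraining fat formation. Antagonists act at each level. SFRP1, SFRP2 and WIF1 bind the ligands outside the cell, and NOTUM, a secreted esterase, strips their lipid. DKK2 binds LRP5 and LRP6, while the role of its relative DKK3 in Wnt signalling is less settled. ZNRF3, a membrane ubiquitin ligase, removes Frizzled receptors from the surface. NKD1 and NKD2 bind Dishevelled inside the cell, and AXIN2 is a scaffold of the destruction complex. Axin2, Nkd1, Notum and Znrf3 are themselves known targets of beta-catenin, by which the pathway limits itself.

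RNA-seq totals lay between 36150738 and 41024689 counts per library, so that 1 count was worth 0.0240 to 0.0284 CPM, the read count scaled to a common library size by TMM. Control replicate 3 and strain replicate 1 stood apart from the other libraries of their groups, as seen from chi-square values per degree of freedom of at least 37.5 and 34.7 in the pairs that held them and of 9.19 and 15.7 in the pairs that did not. Of 12 mesenchymal markers 11 were above 1 CPM and Thy1 was not, and their summed level was 80121 to 88588 CPM in control and 59186 to 70600 CPM in strain libraries. The matrix gene Col1a1 was the highest of these markers (mean over the libraries 24633 CPM). Of other cell types, the 5 endothelial and 4 skeletal muscle markers were all below 1 CPM, as were 5 of 6 blood and 4 of 6 epithelial markers, with Epcam, Cdh5, Ptprc, Sox10 and Myod1 at 0 counts. The 4 adipocyte markers summed to 3.51 to 5.46 CPM in control and 6.16 to 7.59 CPM in strain libraries, and the 6 epithelial markers, mostly Cdh1, to 8.45 to 9.75 and 3.00 to 4.53 CPM. The 5 neural markers, of which 3 were below 1 CPM, summed to 40.7 to 45.7 CPM in control and 42.3 to 56.8 CPM in strain libraries, nearly all of it Tubb3 (mean over the libraries 44.9 CPM). The 6 blood markers, mostly Cd68, summed to 2.28 to 3.19 CPM in control and 3.03 to 4.68 CPM under strain. The part of these markers in the results below was not tested. In bulk RNA, fewer cells of a type and less RNA per cell cannot be told apart.

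The comparison of strain with static control asked which of these genes change when cells are stretched. Dkk2, Nkd1 and Wif1 fell, Notum rose, and the other 6 genes were not called. Calls were made by edgeR's quasi-likelihood test where the p adjusted over all genes tested by the Benjamini-Hochberg method was below 0.05. Thus 4 of 10 genes were called, beside 13.3% of all genes tested, with 1 called higher (5.94% of all genes) and 3 called lower (7.39% of all genes). Values of the 3 strain libraries did not overlap those of the 3 controls for 8 of 10 genes, beside 35.3% of all genes tested, with 4 higher (17.4% of all genes) and 4 lower (17.9%). The median log2 fold change was −0.028 over the 10 genes and 0.0049 over all genes, so the group had no common direction. The genes were chosen with earlier results of these data known, and no test was made over the list.

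**Figure D1:**
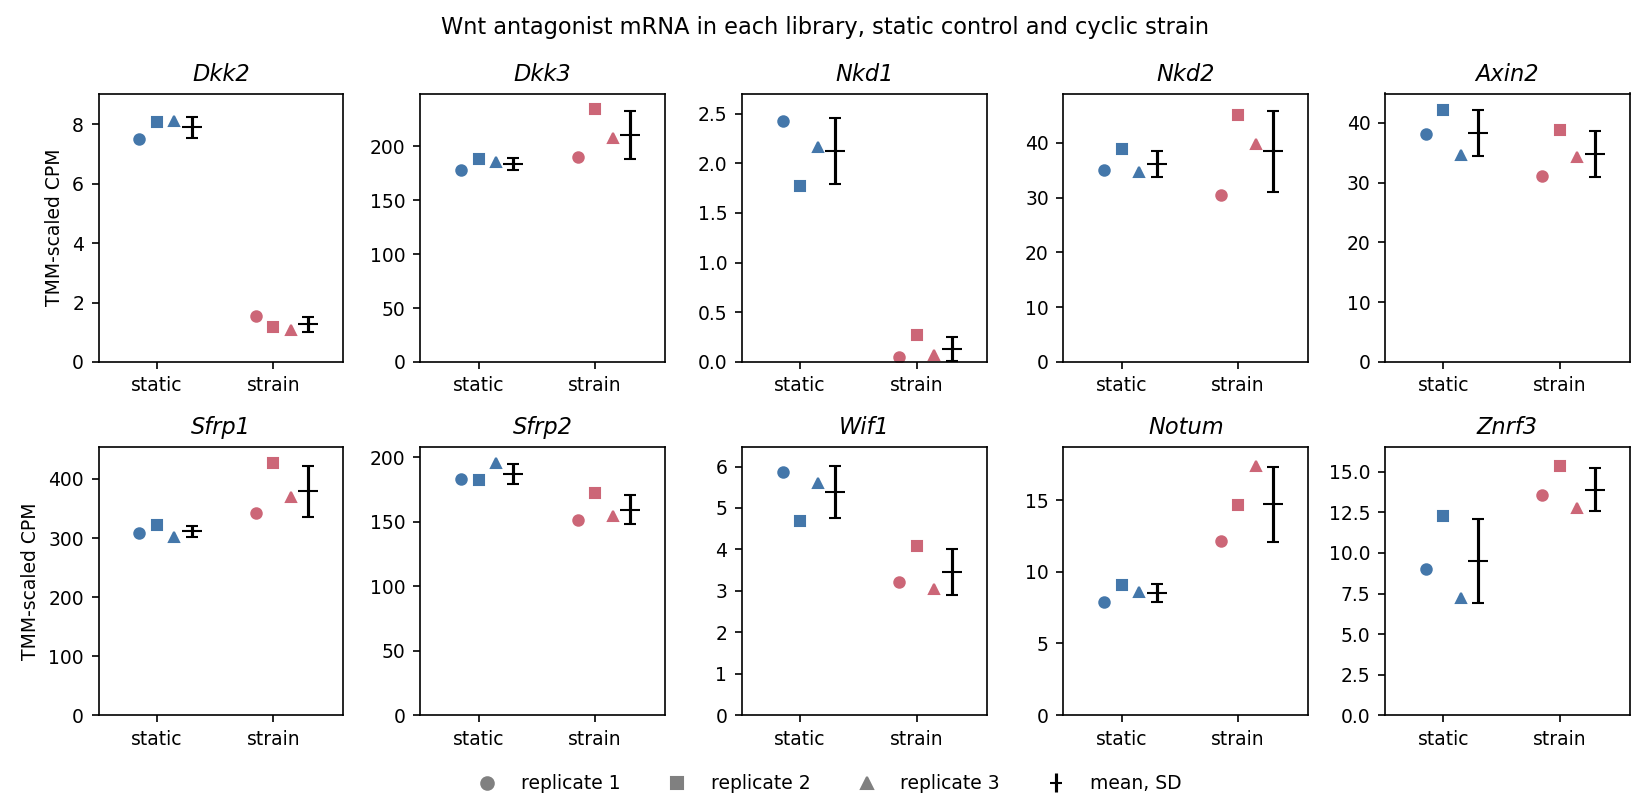
TMM-scaled CPM of the 10 Wnt antagonist genes in each of the 3 static control (blue) and 3 cyclic strain (red) libraries, with the mean and SD of each group as a black dash and bar; every axis starts at 0. Dkk2 and Nkd1 stand near the bottom of their panels under strain, Wif1 is lower and Notum higher without overlap, and Nkd2 and Axin2 overlap.

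The deepest falls were in an extracellular and an intracellular antagonist. Dkk2, whose product binds the LRP co-receptors, was at 7.50, 8.09 and 8.11 CPM in control replicates 1 to 3 and at 1.56, 1.18 and 1.07 CPM in strain replicates 1 to 3. All strain libraries were far below all controls, and the spread within each group was small beside the gap. The mean went from 7.90 ± 0.346 to 1.27 ± 0.260 CPM (SD, n = 3 each), a log2 fold change of −2.63 (SE 0.20, edgeR adjusted p = 3.99e-05). In counts this was 860 reads in the 3 controls and 153 in the 3 strain libraries, a scaled ratio of 0.161. Its exact 95% interval for counting error, with reads taken as independent, was 0.135 to 0.192. Dkk2 was 29th of all genes tested when ordered by adjusted p.

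Nkd1, whose product binds Dishevelled, was at 2.43, 1.77 and 2.16 CPM in control and at 0.0480, 0.267 and 0.0727 CPM in strain replicates 1 to 3. These were 93, 63 and 76 counts against 2, 10 and 3 counts. Nkd1 therefore passed the filter on low counts, which decides the genes tested, through the control libraries, the group where it was high. Nkd1 reads were thus close to absent under strain, with strain replicates 1 and 3 at 2 and 3 counts, too few to fix a level. The log2 fold change was −4.04 (SE 0.51, edgeR adjusted p = 7.77e-04), from means of 2.12 ± 0.332 and 0.129 ± 0.120 CPM (SD, n = 3 each). The scaled ratio of summed counts, 15 against 232, was 0.0586. Its exact 95% interval for counting error, with reads taken as independent, was 0.0323 to 0.0987. How deep the fall was depended on strain replicate 2, the library with 10 counts. Without it the log2 fold change was −5.07, and without any other single library it lay between −4.15 and −3.65.

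Wif1, which encodes a secreted protein that binds Wnt ligands, was at 5.88, 4.69 and 5.60 CPM in control and at 3.22, 4.09 and 3.05 CPM in strain replicates 1 to 3. The lowest control stood above the highest strain library by a small margin. Its log2 fold change was −0.64 (SE 0.19), from 5.39 ± 0.622 to 3.45 ± 0.556 CPM (SD, n = 3 each). The call rested on an edgeR adjusted p of 0.049974, just under the threshold. It was lost when any library other than control replicate 2 was left out, with adjusted p from 0.0519 (without strain replicate 2) to 0.177 (without control replicate 1). It was also lost with DESeq2's size factors (0.0508) or library size alone (0.0635) as scaling, while the direction stayed the same in each of these fits.

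Promoter sequence is shown for these 3 genes because they were the members called lower and because an open region touched the window of Wif1. The lines give the 250 bases before the start site, 5′ to 3′, from the RefSeq table of GRCm38.p6 (the mm10 build), all on the plus strand, with capitals for bases inside a deposited ATAC-seq peak.
Dkk2, chr3:132085042-132085291: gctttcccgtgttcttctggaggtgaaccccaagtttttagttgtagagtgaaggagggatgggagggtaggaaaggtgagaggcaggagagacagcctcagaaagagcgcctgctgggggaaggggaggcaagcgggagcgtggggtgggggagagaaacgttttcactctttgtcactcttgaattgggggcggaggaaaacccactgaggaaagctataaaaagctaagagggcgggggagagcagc
Nkd1, chr8:88527383-88527632: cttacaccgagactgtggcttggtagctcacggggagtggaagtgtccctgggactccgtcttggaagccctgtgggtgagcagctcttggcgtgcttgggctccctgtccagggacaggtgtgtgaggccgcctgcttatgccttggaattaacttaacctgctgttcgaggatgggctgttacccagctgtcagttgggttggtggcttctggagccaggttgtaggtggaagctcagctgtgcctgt
Wif1, chr10:121033754-121034003: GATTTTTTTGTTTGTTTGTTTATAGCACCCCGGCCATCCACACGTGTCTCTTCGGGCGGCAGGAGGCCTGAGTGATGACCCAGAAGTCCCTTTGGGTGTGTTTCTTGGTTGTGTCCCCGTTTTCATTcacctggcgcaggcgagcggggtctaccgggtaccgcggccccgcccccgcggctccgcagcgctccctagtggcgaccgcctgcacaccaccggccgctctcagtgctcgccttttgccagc

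In Wif1, the first 127 of the 250 bases lay inside a peak, found in GFP control replicate 2 alone, and in Dkk2 and Nkd1 none did. The windows differed in base composition, with 7 CpG dinucleotides in Dkk2, 6 in Nkd1 and 21 in Wif1, beside a median of 6 over 32851 windows of the same length. Of the other members the table also held Axin2 (24 CpG), Sfrp2 (16) and Nkd2 (14), so that 6 of 10 members had a window, and Dkk3, Sfrp1, Notum and Znrf3 were not among its entries. On either strand, none of the 6 windows held the TCF/LEF core CTTTGA, the AP-1 motif TGANTCA or the TEAD motif GGAATG. Over all 32851 windows these letters stood in 13.8%, 6.7% and 12.6%. The Nkd1 start site lies 6291 bases inside the annotated gene body, which begins at an earlier start.

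Notum was the 1 member called higher. Its product, the secreted Wnt-delipidating esterase, had mRNA at 7.89, 9.10 and 8.56 CPM in control and at 12.1, 14.6 and 17.4 CPM in strain replicates 1 to 3. Every strain library was above every control, with a wider spread under strain. The means were 8.52 ± 0.606 and 14.7 ± 2.61 CPM (SD, n = 3 each), a 1.73-fold rise (log2 fold change 0.79, SE 0.16, edgeR adjusted p = 0.00837). With 1 library left out the log2 fold change lay between 0.65 and 0.91, and the call held each time, with adjusted p up to 0.0482.

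Znrf3, the ligase that clears Frizzled receptors, was at 9.01, 12.3 and 7.23 CPM in control and at 13.6, 15.3 and 12.7 CPM in strain replicates 1 to 3. The strain libraries lay above the controls, but control replicate 2 came close to them. The log2 fold change of 0.54 (SE 0.19) did not pass (edgeR adjusted p = 0.0787). Without control replicate 2 it was 0.77 and passed (adjusted p = 0.0123), and it passed by DESeq2 (0.0399) but not by limma-voom (0.0637).

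**Figure D2:**
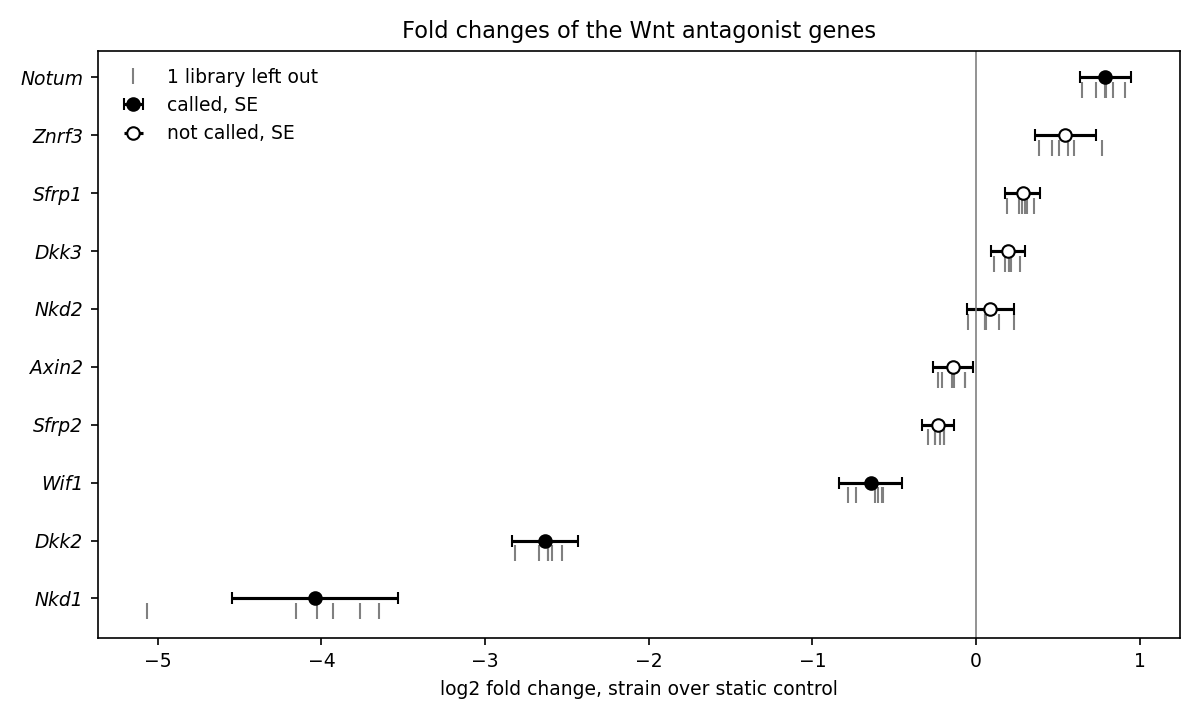
Log2 fold change of strain over static control for each gene (circle, filled where called) with its standard error, and grey ticks for the fits with 1 library left out. Nkd1 at −4.04 and Dkk2 at −2.63 stand far from the other 8 genes, which lie between −0.64 and 0.79.

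The remaining secreted antagonists moved little. Sfrp1, a frizzled-related decoy for Wnt ligands, was at 309, 322 and 302 CPM in control and at 342, 427 and 369 CPM in strain replicates 1 to 3. These groups did not overlap, yet the log2 fold change of 0.29 (SE 0.11) did not pass (edgeR adjusted p = 0.105). Its relative Sfrp2 was at 183, 182 and 196 CPM in control and at 151, 172 and 154 CPM under strain. Here the strain libraries lay below the controls, with a log2 fold change of −0.23 (SE 0.10) that did not pass either (adjusted p = 0.135). Dkk3 was at 178, 189 and 185 CPM in control and at 190, 235 and 208 CPM under strain. Its lowest strain library was just above its highest control, at a log2 fold change of 0.20 (SE 0.10, adjusted p = 0.230). When control replicate 3 and strain replicate 1 were both left out, Sfrp1 (0.33, adjusted p = 0.0213) and Dkk3 (0.27, adjusted p = 0.0461) passed.

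Of the intracellular antagonists beside Nkd1, neither passed and both had overlapping groups. Nkd2 was at 35.0, 38.9 and 34.7 CPM in control and at 30.4, 45.2 and 39.8 CPM in strain replicates 1 to 3. Strain replicate 1 held the lowest value and strain replicate 2 the highest, at a log2 fold change of 0.087 (SE 0.14, edgeR adjusted p = 0.729) that turned to −0.048 without strain replicate 2. Nkd2 overlaps the annotated lncRNA Gm30303 and the pseudogene Gm8062, so its counts are uncertain if counting ignored strand. Axin2, widely used as a readout of beta-catenin activity, was at 38.1, 42.2 and 34.6 CPM in control and at 31.1, 38.8 and 34.2 CPM under strain. Its log2 fold change was −0.14 (SE 0.12, adjusted p = 0.467). The known beta-catenin targets among the members thus had unlike values, with Nkd1 called lower, Notum called higher and Axin2 and Znrf3 not called.

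Among related genes, 3 pairs were compared by the ratio of their counts, and in none could the test at this number of libraries pass 0.05. For every 1000 counts of Dkk3 there were 42.1, 42.9 and 43.8 counts of Dkk2 in control and 8.21, 5.01 and 5.12 in strain replicates 1 to 3. The mean log2 ratio of the pair was −4.54 ± 0.028 in control and −7.39 ± 0.40 under strain (SD, n = 3 each), a difference of −2.85. For every 1000 counts of Nkd2 there were 69.5, 45.5 and 62.3 counts of Nkd1 in control and 1.58, 5.92 and 1.83 under strain, a difference of −4.50 in the mean log2 ratio. The Sfrp1 to Sfrp2 log2 ratio was 0.74 ± 0.10 in control and 1.25 ± 0.067 under strain (SD, n = 3 each), a difference of 0.51 between genes of which neither was called. These ratios are taken within a library and do not depend on its scaling. The exact permutation test over libraries (two-sided) gave p = 0.1 for each pair, which is the smallest that 3 against 3 libraries allow, and 0.1 after adjustment over the 3 pairs, so the differences are given as a description.

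**Figure D3:**
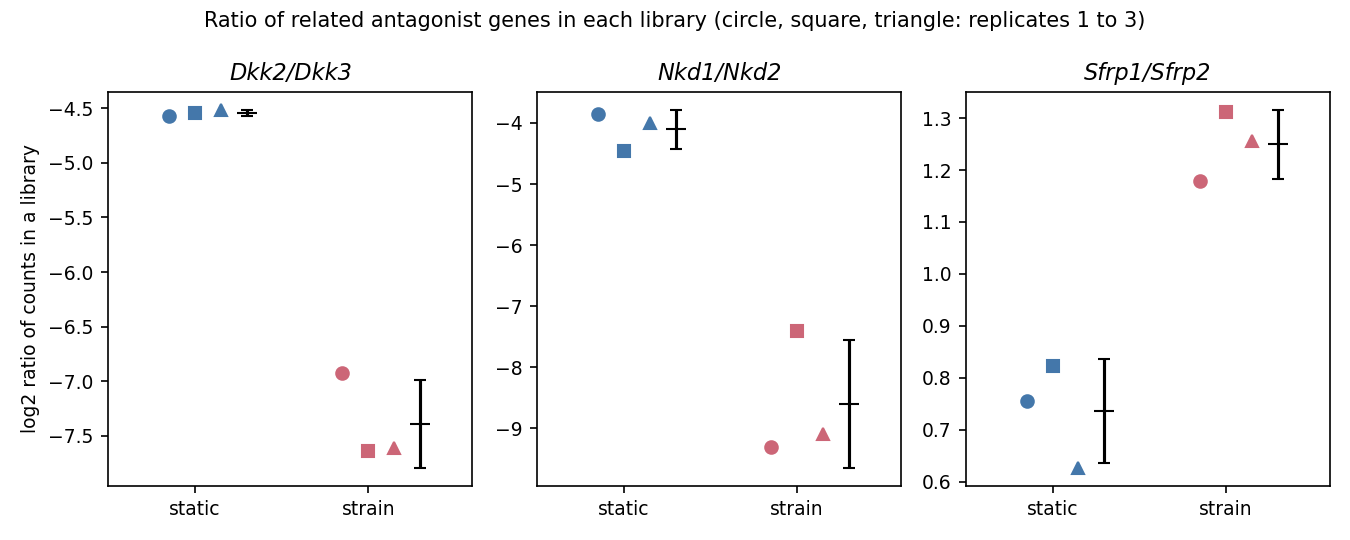
Log2 ratio of the counts of 2 related genes in each library, static control in blue and cyclic strain in red, with mean and SD in black; the vertical axes differ and do not start at 0. The Dkk2/Dkk3 and Nkd1/Nkd2 ratios lie lower and the Sfrp1/Sfrp2 ratio higher in each strain library than in any control, with an exact permutation p of 0.1 for each pair.

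Genes with a pattern close to a member were sought by the Euclidean distance between centred log2 CPM values over the 6 RNA-seq libraries, among 12833 other genes. Members and symbols of predicted or clone-named gene models were left out of the search. The distance spans both groups, so fold changes near that of the member follow largely from how these genes were picked. Nearest to Notum were Apol6, an apolipoprotein L gene (distance 0.19), Gpnmb, which encodes a transmembrane glycoprotein (0.19), and Mcm5, a subunit of the replicative helicase (0.20). Their log2 fold changes were 0.80, 0.81 and 0.78. Nearest to Dkk2 were Prrt4 (distance 0.30), the phospholipid phosphatase-related gene Plppr3 (0.44) and the G-protein regulator Rgs11 (0.49), at log2 fold changes of −3.15, −2.53 and −2.66. Prrt4 had a low mean level, 0.689 CPM in control and 0.0749 CPM under strain, so its distance rests on few reads. Like Nkd1, it was tested only through its control libraries.

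The rest of the pathway was read from 3 lists of Wnt genes. Of 41 other inhibitors and negative regulators, 31 were tested, 5 were called lower and 0 higher, with a median log2 fold change of −0.048. Beside the count of 0 higher by edgeR, 2 were higher at an unadjusted p under 0.05, DESeq2 called 2 and limma-voom 0. Igfbp4, an IGF-binding protein also known to inhibit Wnt receptors, went down to 275 ± 27.5 CPM from 612 ± 42.8 CPM (SD, n = 3 each), a log2 fold change of −1.15 (edgeR adjusted p = 1.47e-04). Dact3, which binds Dishevelled as the NKD proteins do, fell from 38.8 to 21.6 CPM (−0.85), and Trabd2b, a membrane protease that cleaves Wnt ligands, from 31.1 to 20.5 CPM (−0.60). Amer1, a partner of APC (−0.44), and Cxxc5, another Dishevelled-binding protein (−0.95), were also called lower. Neither call survived leaving out control replicate 1, strain replicate 2 or strain replicate 3, nor that of Cxxc5 leaving out control replicate 3. Without any 1 of control replicate 1, strain replicate 2 and strain replicate 3, the count called lower was 3. In this list 10 genes were under the filter on low counts, 6 of them at 0 counts in every library, among them the osteocyte antagonist Sost, while Dkk1 had 1 count or none in each library.

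Of 52 ligands, receptors, transducers and TCF factors, 39 were tested, 9 were called lower and 3 higher, with a median of −0.14. Porcn, the acyltransferase that adds the lipid that NOTUM removes, went down to 50.1 ± 9.28 CPM from 106 ± 5.79 CPM (SD, n = 3 each), a log2 fold change of −1.09 (edgeR adjusted p = 8.09e-04). The transcription factor gene Tcf7l1 fell from 41.5 to 24.2 CPM (−0.77) and the receptor gene Fzd2 from 141 to 99.6 CPM (−0.50). Rspo2, whose product draws ZNRF3 off the cell surface, rose from 42.6 to 63.1 CPM (0.57), a call that did not survive leaving out control replicate 1 or strain replicate 2, with an adjusted p of up to 0.0539. The ligand genes Wnt11 (1.26 to 0.301 CPM) and Wnt6 (1.12 to 0.251 CPM) were called lower at low levels. Both passed the filter on low counts through the control libraries, the group where they were high. The call of Wnt11 was lost without strain replicate 3, and that of Wnt6 without control replicate 3 or strain replicate 3. Wnt10b, a ligand gene at a higher level, was also called lower (93.0 to 71.6 CPM, −0.38, edgeR adjusted p = 0.0319). Besides Rspo2, Rspo1 (0.838 to 1.95 CPM, 1.22) and the receptor gene Lgr4 (10.3 to 15.7 CPM, 0.61) were called higher. Rspo1 had a low level, with 27 to 33 counts in the control libraries. The calls of Rspo1, Lgr4 and Wnt10b were lost without control replicate 1, and those of Rspo1 and Lgr4 also without strain replicate 3. Without control replicate 1 the list had 5 called lower and 0 higher, without strain replicate 3 it had 4 and 1, and without strain replicate 2 it had 1 higher.

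Of 30 genes known as targets of beta-catenin, members left out, 25 were tested, 6 were called lower and 2 higher, with a median of −0.22. Lef1, Tcf7 and Lgr5 stand in both this list and the one before, and Rnf43 and Apcdd1, neither called, in both this list and that of the other inhibitors. Tnfrsf19, a TNF receptor family gene, fell from 20.7 to 8.36 CPM (log2 fold change −1.31, edgeR adjusted p = 2.17e-04), and Tbx3, a T-box factor, rose from 12.2 to 22.3 CPM (0.87, adjusted p = 0.00118). Lef1, the nuclear partner of beta-catenin, fell from 37.5 to 25.2 CPM (−0.57), a call lost without control replicate 1 or strain replicate 3. The calls of Tcf7 (−0.45), Sox4 (−0.44) and Tnfrsf11b (0.53), the osteoprotegerin gene, were each lost on leaving out any of 4 libraries. Accordingly, the count called lower was 1 without control replicate 1, 3 without strain replicate 1 or 2 and 2 without strain replicate 3, and the count called higher was 1 on leaving out strain replicate 2, strain replicate 3 or control replicate 1. The called shares of the 3 lists were 16.1%, 30.8% and 32%, beside 13.3% of all genes tested, and none of the lists was tested against other genes.

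**Figure D4:**
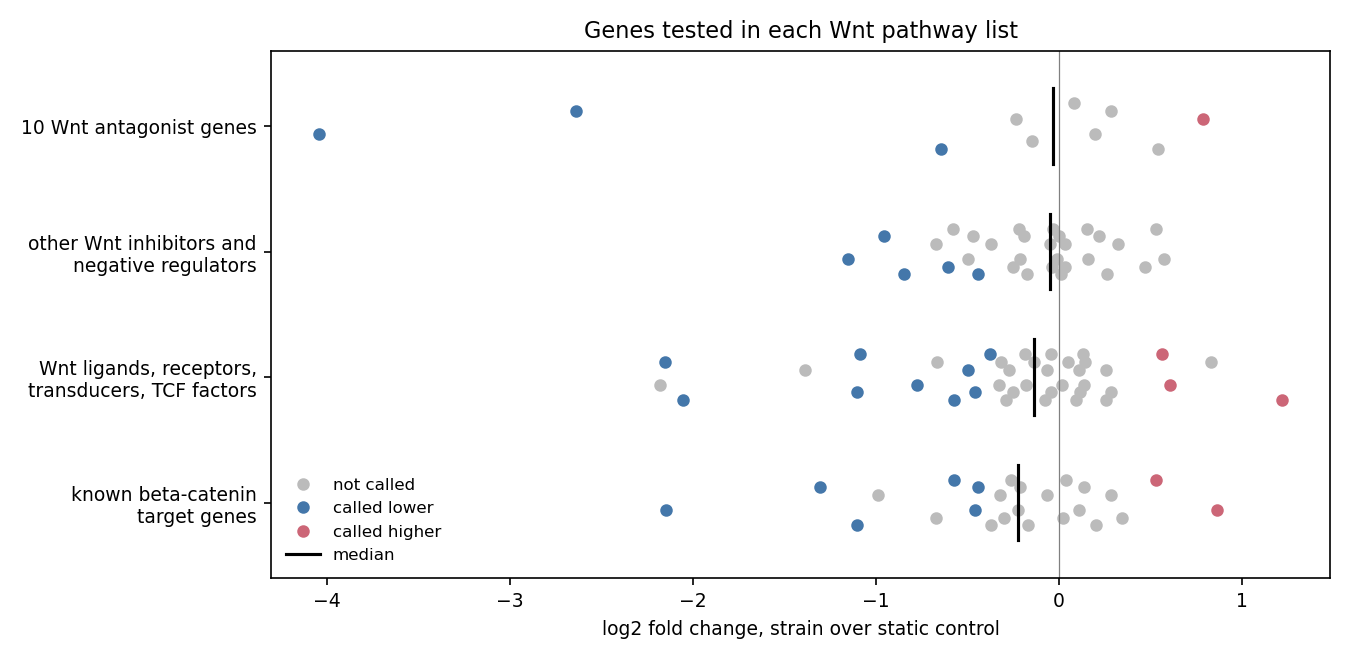
Log2 fold change of strain over static control for each tested gene of the 10 Wnt antagonist genes and of 3 further Wnt lists, blue where called lower, red where called higher and grey where not called, with a black line at each median. The medians lie between −0.22 and −0.028, and Nkd1 at −4.04 and Dkk2 at −2.63 are the lowest points.

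Open chromatin at the same genes was compared between GFP control and Piezo1 knockout cells by the presence of peaks, with no test, since the lists hold no read counts. There were 15978 and 26652 peaks for the GFP control libraries, replicate 1 first, and 15980 and 13610 for the knockout libraries. Peaks near the Piezo1 gene itself fell in 2 regions, both with a peak in knockout replicate 2 and 1 in knockout replicate 1, but open chromatin does not check a knockout. Only Dkk3, Nkd1, Axin2, Wif1 and Znrf3 had a region within 5 kb, that is 5 of 10 members, beside 78.6% of the 14340 genes tested that could be placed. No peak lay near Dkk2, Nkd2, Sfrp1, Sfrp2 or Notum in any of the 4 lists. A missing peak does not show closed chromatin, since the ATAC-seq depth and the peak threshold are not known. The 2 GFP control lists had 4 and 10 of the regions and the 2 knockout lists 4 and 2. The longest list had the most of these regions and the shortest the fewest, and the part of list length was not tested.

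The region in Nkd1 was the 1 region near a member that had a peak in every list, beside 26.4% of all regions. It spanned chr8:88555318-88556196 (mm10), inside the gene body and 27685 bases beyond the Nkd1 start site. The authors' fold enrichment over local background, which belongs to each peak within its own list, was 3.80 and 4.29 in control replicates 1 and 2 and 6.95 and 5.26 in knockout replicates 1 and 2. By the authors' −log10 q the peak stood at rank 14597 of 15978 and 23354 of 26652 in the control lists, and at rank 925 of 15980 and 3141 of 13610 in the knockout lists. Peak lengths were 200 and 215 bases in control and 513 and 879 bases in knockout. The control peaks were therefore among the weakest of their lists, and at a −log10 q of at least 5, or with an equal number of top-ranked peaks per list, the region was present in both knockout lists and neither control list. Near members it was then the 1 region of that kind, beside 1.51% of all regions at the stricter q and 4.98% with equal numbers of peaks. With all peaks 0 such regions lay near members, beside 1.57% of all regions. Enrichment values of separate libraries are not on a shared scale, so whether accessibility changed here cannot be read from them.

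Znrf3 had 3 neighbouring regions in its gene body, which spans chr11:5276329-5444847. The first, chr11:5380181-5380562, was the 1 region near a member with a peak in both GFP control lists and neither knockout list, beside 10.6% of all regions. Its peaks ranked 9451 of 15978 and 25909 of 26652 by −log10 q, and the second of these did not reach a −log10 q of 5, so the region was no longer of that kind at this limit. At this limit 0 regions near members had peaks in both controls alone, beside 11.2% of all regions, and with equal numbers of peaks there were also 0, beside 7.98%. The next, chr11:5380571-5380855, had peaks in control replicate 2 and knockout replicate 2, and the third, chr11:5381116-5381791, in both controls and knockout replicate 1. Each of the 4 lists thus held at least 1 peak in this stretch, at differing places.

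Wif1 had 2 regions just before its start site, which is also the start of its gene body at chr10:121034004-121100642. The nearer one, chr10:121033608-121033880, ended 124 bases before the start and was found in control replicate 2 alone, with a fold enrichment of 6.32. The farther one, chr10:121033288-121033546, was found in control replicate 2 (4.94) and in knockout replicate 1 (3.92). In Axin2 a single peak of control replicate 2, chr11:108920422-108920690, began 73 bases after the start site (5.70). Neither the Wif1 nor the Axin2 start site itself was covered by a peak in any list. Dkk3 had 3 regions inside its gene body, chr7:112116019-112159482. The middle one, chr7:112147901-112148436, had peaks in both controls and knockout replicate 1, and the other 2 were found in control replicate 2 alone. Of the 10 regions near members, 4 were found in control replicate 2 alone, the list with the most peaks.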

How the data were processed

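RNA-seq was deposited as a table of read counts per gene symbol. Per the submitters' processing notes, the authors used Trim Galore 0.6.5, STAR, HTSeq and DESeq2 with mm10, with annotation, strand setting and the treatment of multi-hit reads not given in the sources used here. Per the labels, cDNA was amplified with a single-cell full-length kit, with no molecular identifiers named, so reads need not be independent molecules and exact intervals cover counting error only. Counts were compared with edgeR 4.0.16 (R 4.3.3, two-sided quasi-likelihood test), with TMM scaling of genes kept by filterByExpr, and the SE was the absolute log2 fold change over the square root of F. Limma 3.58.1 (voom) and DESeq2 1.42.0 served as alternatives, with other scalings, no filter, a replicate block and each library left out. The script was tested on simulated data. Gene bodies came from a RefSeq table of GRCm38.p6 without strand, exon or transcript length. Levels and count ratios set side by side for different genes are therefore not corrected for transcript length.

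Each ATAC-seq library has its own peak list deposited by the authors, made with Trim Galore 0.6.5, Bowtie2 2.4.2 and MACS2 on mm10 per the submitters' processing notes, with threshold and read shifting not given there. Each deposited peak has a fold enrichment (ratio to local background), −log10 p and q values and a score, used only within its list, and the ATAC-seq depth is unknown. Peaks sharing at least 1 bp were merged, and a region was present in a list whose peak lay in it.

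Members and lists were chosen with earlier results of these data known. All members are named, as are up to 6 called genes of each list with the smallest adjusted p, and the 3 nearest patterns of the called member with the smallest adjusted p in each direction. Wnt10b, Rspo1 and Lgr4 were named beyond that rule. The rule for promoters asked for a peak over the start site, which no called member had, so the 3 windows shown were chosen after the values were seen. The protein sequences foreseen by the rule were not used here. Replicate numbers were not taken to pair libraries.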

Additional observations from a re-analysis of the deposited data

How the results depend on the processing

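Dkk2, Nkd1 and Notum kept their direction and call, and Axin2 and Sfrp2 their direction without a call, in all 13 alternative fits. Wif1 lost its call with DESeq2's size factors (−0.64), with library size alone (−0.60), without control replicate 3 and strain replicate 1 together (−0.57, an alternative chosen after seeing the data) and in 5 of 6 fits with 1 library left out, whose log2 fold changes lay between −0.79 and −0.57. Znrf3 passed without the filter (0.55), by DESeq2 (0.54) and with the replicate block (0.57), with 0.38 to 0.77 on leaving out 1 library. Dkk3 (0.27) and Sfrp1 (0.33) passed without the 2 libraries that stood apart, with 0.11 to 0.27 and 0.19 to 0.35 on leaving out 1 library. Nkd2 turned to −0.048 without strain replicate 2 and lay between −0.048 and 0.23 on leaving out 1 library.

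The 1 member called higher became 2 without the filter, by DESeq2 and with the replicate block, and 3 without the 2 libraries that stood apart, with 1 to 2 on leaving out 1 library. Over all genes, 911 called higher became 1428 without the filter, 1557 with the replicate block and 1512 without those 2 libraries (and 1134 called lower became 1614), with 369 to 1085 on leaving out 1 library, where those called lower ranged from 577 to 1244. The counts over all genes fell by more than 1.5 times without control replicate 1 (369 and 610), strain replicate 2 (420 and 661) or strain replicate 3 (404 and 577). With library size alone 55.6% of called genes were higher, beside 44.5% with TMM. On leaving out 1 library, the other inhibitors had 0 to 1 called higher and 3 to 5 lower, the ligands and receptors 0 to 3 and 4 to 9, and the beta-catenin targets 1 to 3 and 1 to 5. The other inhibitors had 2 called higher by DESeq2 and 1 without the filter or with the replicate block. The cause of these changes was not tested. Replicate numbers gave correlations of 0.028, 0.21 and 0.094 between the deviations of same-numbered libraries, and of −0.19 to 0.091 between differently numbered ones. Each control replicate correlated best with the strain replicate of its own number. Strain replicate 1, however, correlated better with control replicate 3 (0.091) than with control replicate 1. The numbers entered only as the replicate block, and whether they mark true pairs was not tested.

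Near members, regions in both control and neither knockout list numbered 1 with all peaks, 0 at a −log10 q of at least 5 or with equal numbers of peaks, 2 when a peak had to cover at least 50% of the region, and 1 to 5 on leaving out 1 list. Regions in both knockout and neither control list numbered 1 in each of these 3 settings against 0, and regions in every list 0 against 1, with 1 to 3 on leaving out 1 list. The total of 10 regions was 6 to 10 on leaving out 1 list, and 10 with a window of 2 or 10 kb.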
